A study of Mus musculus with 3 samples.

Results

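Vascular smooth muscle cells were selected from single-cell RNA-seq of the mouse medial vestibular nucleus (MVN), a brainstem nucleus that receives input from the balance organs of the inner ear. The selection kept barcodes with at least 200 genes that held at least 1 UMI (a tag that counts each captured mRNA molecule once) of 3 or more of the genes Acta2, Myh11, Tpm2, Mylk, Myl9 and Aoc3, with Acta2 or Myh11 among them. Barcodes with UMIs of 2 or more of the pericyte genes Kcnj8, Atp13a5 and Vtn, or of 2 or more of the fibroblast genes Dcn, Col1a1 and Col3a1, were left out. The selection gave 348 cells of 13964, of which 55 were in the control library, 181 in the library of the operated side (ULI) and 112 in that of the opposite side (ULC).

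All mice were C57BL/6 by the labels (C57BL/6J in the methods) and had surgery at postnatal day 20, with tissue taken 1 day later. In the UL group, unilateral labyrinthectomy destroyed the vestibular end organs of the right ear, and the operation included removal of the malleus and incus, coagulation of the stapedial artery, ethanol and gelfoam. Controls had the tympanic bulla opened and kept their end organs. The treatment label names labyrinthectomy for every sample, so the control library was taken from its source name. ULI is the MVN on the lesioned side and ULC the MVN on the other side of 11 UL mice pooled, and the control library pooled 10 mice. With 1 pooled library per condition there was no replicate, so no test between conditions was possible. The differences between libraries and between conditions cannot be told apart, and the intervals below cover counting error only, at 95%.

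Vascular smooth muscle cells wrap arteries and arterioles and set vessel diameter. A rise in cytosolic calcium lets calmodulin switch on myosin light chain kinase, the product of Mylk, which drives smooth muscle myosin along actin, while myosin phosphatase, which the kinases encoded by Rock1 and Rock2 restrain, reverses the step. Serum response factor, helped by myocardin, keeps contractile genes on through a promoter element called the CArG box, and the same factor drives many immediate early genes.

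A CArG box was found within 250 bases before and 50 bases after the transcription start of 5 of the 29 rule and contractile genes that had a RefSeq promoter window, which is 17.2% (36 were listed). The same search held for 535 of all 32851 windows (1.63%), or 488 of 27025 genes (1.81%). Among immediate early genes it held for 2 of 20 (Egr2 and Zfp36, 24 listed), and among smooth muscle transcription factors for Srf alone of 15 (22 listed). A match says only that the letters are there. The sequences below show a box in 4 contractile genes, an early gene and the gene of the factor itself, and capitals mark the CArG box, which ends before the start site in each. They are from GRCm38.p6, on the strand of the gene.
Myl9, chr2:156775283-156775332, plus strand, box 151 bases before the start: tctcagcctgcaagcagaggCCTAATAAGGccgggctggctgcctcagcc
Cnn2, chr10:79988524-79988573, plus strand, box 46 bases before the start: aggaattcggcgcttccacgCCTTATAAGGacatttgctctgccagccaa
Myl6, chr10:128493030-128493079, minus strand, box 40 bases before the start: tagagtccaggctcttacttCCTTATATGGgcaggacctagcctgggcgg
Vcl, chr14:20929151-20929200, plus strand, box 217 bases before the start: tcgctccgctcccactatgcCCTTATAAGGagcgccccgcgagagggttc
Zfp36, chr7:28379257-28379306, minus strand, box 48 bases before the start: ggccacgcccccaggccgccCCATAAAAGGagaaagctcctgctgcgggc
Srf, chr17:46556195-46556264, minus strand, boxes 52 and 72 bases before the start: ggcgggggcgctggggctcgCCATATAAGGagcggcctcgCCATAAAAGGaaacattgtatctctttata

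The 3 libraries held 14876 barcodes, of which 912 had fewer than 200 genes, and 57216827 UMIs over 28676 genes. Depth differed, and the median cell held 3177 UMIs (control), 2100 (ULI) or 931 (ULC). In the smooth muscle cells the medians were closer, at 3073, 2135 and 2610 UMIs, with 1224, 850 and 1123 genes, and their summed UMIs were 194100, 426589 and 317827. Cell makeup differed too: microglia took 37.3% of the control, 16.9% of the ULI and 10.3% of the ULC library, and choroid plexus cells were 0.651%, 4.65% and 18.5%. No 2 cells had identical counts. Cell names carry only a library and a number, so barcodes shared between libraries could not be counted.

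The rule fixes how its own genes behave, so those values are a description. All 6 rule genes were detected together in 60% of the control, 41.4% of the ULI and 58.9% of the ULC cells. At the threshold, cells with 3 rule genes numbered 4, 12 and 9 (control, ULI, ULC), with a median of 11.5, 8 and 14 rule gene UMIs. Cells just outside, with 2 rule genes, numbered 4, 8 and 9 and had 3, 3.5 and 4. Of smooth muscle genes that the rule did not use, Tagln, which encodes the actin-binding protein transgelin, was at 464, 413 and 280 CPM in control, ULI and ULC (CPM is the gene's UMIs scaled to the same UMI total in each library), and was 301, 102 and 213 times its level in all other cells of the same library. Cnn1, another marker of mature smooth muscle, had 0, 9 and 10 UMIs, and Actg2, the actin of visceral smooth muscle, 5, 12 and 3.

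Acta2, smooth muscle actin, had a UMI in 94.5%, 98.3% and 99.1% of the selected cells, a share the rule sets. In microglia, which should lack it, the share was 0.640%, 1.23% and 0.213%, at median depths of 3149, 2413 and 2770 UMIs against 3073, 2135 and 2610 in the smooth muscle cells. For Myh11, the smooth muscle myosin heavy chain, microglia showed 0 of 1719, 0.368% and 0.425%, the first of which allows up to 0.214%. Oligodendrocytes had Acta2 in 1.43%, 1.35% and 0.596% at median depths of 4244, 1230 and 735 UMIs. Choroid plexus cells had it in 16.7% (5 of 30), 1.34% and 1.43% at 11004, 4686 and 848 UMIs.

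Outside the rule, the 15 genes that stood highest over all other cells included Pln, Crispld2, Map3k7cl, Nov, Tagln, Olfml2a, Jph2, Myocd, Mustn1, Crip1, Des, Stc2, Dmp1 and Pdlim3. Among these are the calcium pump regulator phospholamban (Pln), the membrane junction protein junctophilin (Jph2), the serum response factor partner myocardin (Myocd) and the filament protein desmin (Des). Pln was at 155, 256 and 223 CPM, 317, 166 and 227 times the other cells. Myocd was at 113, 138 and 145 CPM, 201, 93.3 and 176 times the other cells. As the cells were chosen on the same counts, these ratios are a description.

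Pericytes, which line capillaries, are the closest cell class, and 183 cells were called pericyte-like from markers (38, 107 and 38). Another 171 cells (53, 89 and 29) met the smooth muscle criterion but also had 2 or 3 pericyte rule genes, and were in neither group. Of 4640 genes compared, 232 (5%) were at least 2-fold higher in the smooth muscle cells in each library and 197 (4.25%) at least 2-fold lower. These counts include the genes that chose the 2 groups, whereas the first 10 below leaves out the smooth muscle rule genes. Cav1, the coat protein of caveolae, was 19.1-, 25.8- and 36.9-fold higher than in pericyte-like cells. The basement membrane protein Ntn4 was 20.7-, 15.4- and 16.1-fold higher. The phosphatase subunit Ppp1r12b was 29.9-, 14.6- and 15.7-fold higher. These fold values lay above 10 in every library, and Eln (elastin), Gsn, Cpe, Lmod1, Sorbs2, Myom1 and Olfml2a made up the rest of the first 10.

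At the other end, Abcc9, the sulfonylurea receptor subunit of the pericyte potassium channel, was at 25.8, 25.8 and 37.8 CPM in the smooth muscle cells against 3539, 3632 and 3752 in the pericyte-like cells. Abcc9 was not part of the smooth muscle selection, whereas its partner Kcnj8 was. Both were among the markers that picked the pericyte-like cells, so their difference is partly set by that choice. Kcnj8 and Atp13a5 chose the cells of both groups, so their place among the lowest 10 follows from the choice. The others were Emcn, Art3, Grm3, Cthrc1, Itih5, Plxdc1 and Pla1a. Rgs5, which limits G protein signals in mural cells, was at 31520, 18020 and 14690 CPM in smooth muscle and 50332, 38647 and 36085 CPM in pericyte-like cells. Notch3, the receptor of mural cell maturation, was nearly level between both, at 1.06, 1.07 and 0.96 times pericyte-like cells.

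The share of smooth muscle cells was higher in both UL libraries than in control. They made up 1.19% of the control library (exact binomial interval 0.901 to 1.55), 3.76% of the ULI library (3.24 to 4.34) and 2.46% of the ULC library (2.03 to 2.96), and these intervals did not overlap. With no limit on pericyte and fibroblast genes the control and ULC intervals did overlap, at 2.34% (1.93 to 2.82) and 3.10% (2.62 to 3.65), beside 5.63% (5.0 to 6.32) in ULI. With every cell thinned to 500 UMIs the shares were 1.37%, 3.93% and 2.41%. Of all mural cells, smooth muscle cells were 37.7% of 146 (29.8 to 46.1) in control, 48.0% of 377 (42.9 to 53.2) in ULI and 62.6% of 179 (55.0 to 69.7) in ULC. On that scale ULC and not ULI was the highest, and the control and ULI intervals overlapped. Of mural and endothelial-like cells together they were 18.6%, 38.4% and 36.6%. The part of the unequal microglia and choroid plexus content in the share of all cells was not tested beyond leaving them out of the total, which gave 1.92%, 4.80% and 3.47%. The ULI and ULC intervals then overlapped, at 4.136 to 5.527 and 2.862 to 4.155.

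**Figure D1:**
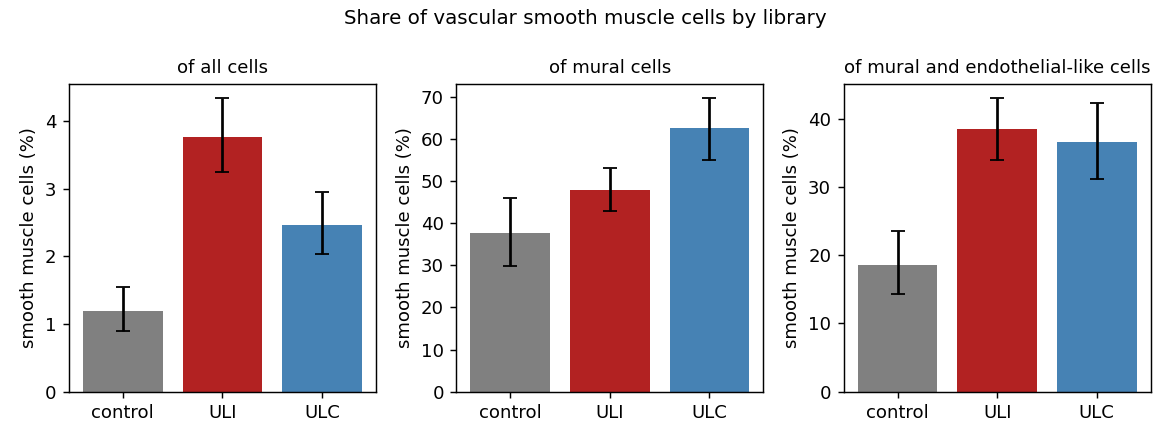
Smooth muscle cells in each library as a percent of all cells (left), of mural cells (middle) and of mural and endothelial-like cells (right). Bars start at 0 and whiskers are exact binomial 95% intervals, which cover counting error only. The left panel shows 1.19%, 3.76% and 2.46%, and the middle panel 37.7%, 48.0% and 62.6%.

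Gene levels were compared by the log2 ratio of CPM with an exact binomial interval, and a gene is called past the fold here when it differed at least 2-fold with an interval on 1 side of 0, among genes with at least 20 UMIs in the smooth muscle cells of both libraries together. By that measure 515 of 4996 genes (10.3%) were higher and 463 (9.27%) lower in ULI than in control. For ULC the figures were 692 (14.9%) and 490 (10.5%) of 4657. From ULC to ULI, 507 of 5601 genes (9.05%) were higher and 731 (13.1%) lower in ULI. The ratios of ULI and of ULC to control share the control library. Ratios given below for all other cells come from 1 sum per library, which mixes cell classes whose shares differed between the libraries.

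The genes of the selection chose the cells, so their levels are a description. None of the 6 passed the fold in either comparison with control, beside the backgrounds of 10.3% and 14.9% higher. Acta2 was at 6218, 5792 and 7104 CPM in the order control, ULI, ULC, which is kept below. Mylk was at 2818, 4543 and 3065 CPM. Myh11 was at 1412, 2164 and 2193 CPM. Myl9, the regulatory light chain, was the exception between the sides of the UL mice, with 1659, 1343 and 3065 CPM and a log2 ratio of ULI to ULC of -1.19 (-1.34 to -1.04). Pericyte-like cells of these libraries showed -1.21 for Myl9.

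**Figure D2:**
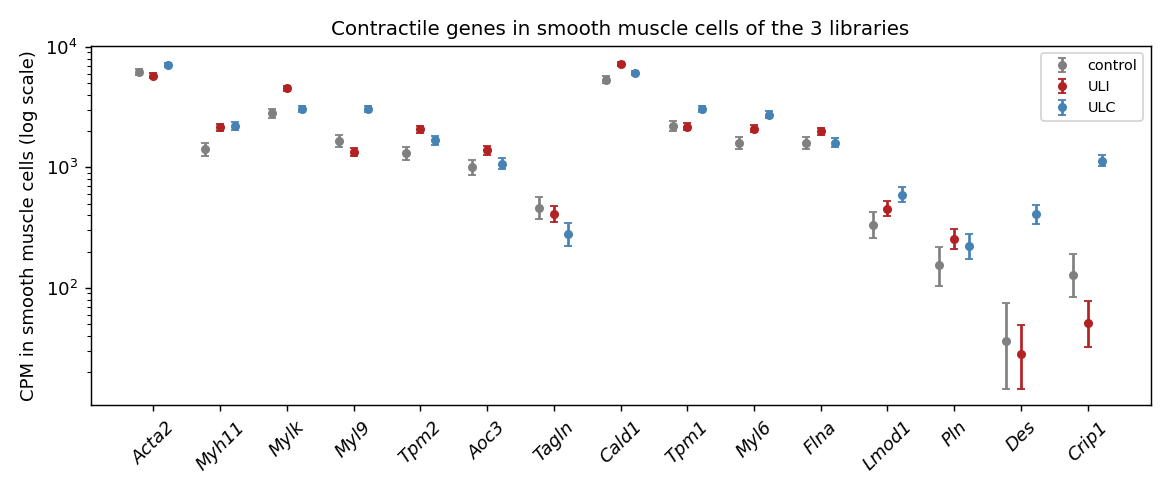
Levels of the 6 rule genes and 9 further contractile or muscle genes in smooth muscle cells of the 3 libraries, in CPM on a log axis with Poisson 95% intervals. Levels are to be read within a gene. Acta2 and Tpm1 lie close together in the 3 libraries, whereas Des (36.1, 28.1 and 409 CPM) and Crip1 (129, 51.6 and 1136 CPM) stand high in ULC.

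Most of the contractile list outside the rule was level between ULI and control. Of 30 listed genes, 25 were measured, 2 were higher (Pdlim3 and Synpo2, beside 10.3% of all genes) and 3 lower (Vcl, Csrp1 and Crip1, beside 9.27%), with a median log2 ratio of 0.37 against 0.11 over all genes tested. Cald1, which restrains myosin on thin filaments, was at 5353 CPM in control and 7204 in ULI. Tpm1, tropomyosin, was at 2221 and 2173 CPM. Vim, the filament protein vimentin, was at 3122 and 5921 CPM, a log2 ratio of 0.92 (0.80 to 1.05), just under 2-fold. Synpo2, an actin-bundling protein, had 1 UMI in control and 54 in ULI, a log2 ratio of 4.62 (2.08 to 9.95).

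In ULC, 8 of 27 contractile genes were higher than in control (29.6% of those measured, beside 14.9% of all genes) and 0 lower, with a median of 0.64 against 0.03. They were Des, Crip1, Cnn2, Csrp2, Pdlim3, Pdlim7, Synpo2 and Tln1. Des was at 36.1, 28.1 and 409 CPM. Crip1, a LIM protein, was at 129, 51.6 and 1136 CPM. Cnn2, a calponin, was at 118, 112 and 563 CPM, and Csrp2, a further LIM protein, at 36.1, 30.5 and 327 CPM. In each of these 4 genes, ULC was the library that stood apart.

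The other cells of the ULC library, taken as 1 sum, had ratios of similar size. For Des the log2 value of ULC over control was 3.50 (2.42 to 4.85) in smooth muscle cells and 3.71 in all other cells together. For Cnn2 these values were 2.25 and 2.28, for Csrp2 3.18 and 3.35, and for Crip1 3.14 and 2.48. With the ratio of the other cells subtracted, Des, Cnn2 and Csrp2 came to -0.21, -0.03 and -0.17. That sum mixes classes. Of the 66 Des UMIs in the other cells of ULC, 25 were in cells with both smooth muscle and pericyte genes and 18 in pericyte-like cells, and Des was found in 8 of 38 pericyte-like cells but in 0 of 1677 oligodendrocytes (which allows up to 0.220%), 0 of 127 endothelial-like cells (2.86%) and 1 of 470 microglia. For Cnn2 the ratio was 2.22 in pericyte-like and 1.22 in endothelial-like cells, and for Csrp2 1.94 in endothelial-like cells.

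Genes of calcium handling and contraction control showed the kinase genes Rock1 and Rock2 higher in ULI. Of 30 listed genes 24 were measured, and Kcnma1, Rock1, Rock2 and Rgs2 were higher in ULI (4 of 24, beside 10.3%) and 0 lower. Rock1 was at 763, 1779 and 1391 CPM, a log2 ratio of ULI to control of 1.22 (0.97 to 1.49), against 0.28 in all other cells and 0.02 in pericyte-like cells. Rock2 was at 531, 1165 and 614 CPM, with 1.14 (0.83 to 1.46) in smooth muscle and -0.11 in other cells. Ppp1r12a, the myosin phosphatase subunit that these kinases act on, was at 1108, 2016 and 2039 CPM and just under 2-fold.

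In ULC, Rgs2 and Rgs16 were higher and Rgs5 lower (2 and 1 of 24, beside 14.9% and 10.5%). With the ratio of all other cells subtracted, Rgs16 came to -0.69. Rgs5 was at 31520 CPM in control and 14690 in ULC, a log2 value of -1.10 (-1.16 to -1.05), and at 18020 CPM in ULI, a ratio of -0.81. Smooth muscle cells with no UMI of Kcnj8, Atp13a5 or Vtn numbered 16, 100 and 63, and their Rgs5 was at 12380, 13029 and 10347 CPM. These 3 values lay close together, but the control value comes from 16 cells. In those 16 control cells oligodendrocyte genes made up 81257 CPM, with 88.0% of these UMIs in 1 cell. The UMIs of that cell enter the total by which every control level of this subset is scaled. The contractile list was at 16947 CPM there against 21680 in all control smooth muscle cells, and the rule genes at 14039 against 14426. In ULI the contractile list was at 27505 against 27954 CPM. The part of that cell in the control Rgs5 level was not tested, so the 3 values do not show whether Rgs5 was level. Pde3a, a cAMP phosphodiesterase, was at 1458, 1950 and 1369 CPM and passed no fold.

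Receptors for vessel-active signals were mostly too sparse to measure, with 6 of 24 measured in ULI to control and 8 in ULC to control. Npy1r, the receptor for neuropeptide Y, was at 489, 764 and 617 CPM. Ednra, the endothelin receptor of smooth muscle, was at 278, 333 and 214 CPM. Neither passed the fold. Ramp1, a subunit of the CGRP receptor, was at 30.9, 115 and 53.5 CPM, a log2 ratio of ULI to control of 1.89 (0.67 to 3.41) that rests on 6 control UMIs. Ednrb had 0 control UMIs and 21 in ULI, a log2 ratio of 1.67 with the control set to the floor of 3 counts. Its interval starts at 1.245 and has no upper end. The ULI UMIs were in 3.87% of the cells, 33.3% of them in 1 cell. Over the 3 libraries together, Ednrb was at 0.29 times its level in all other cells. In ULC, Tbxa2r, the thromboxane receptor, was at 120 CPM against 30.9 in control, or 1.95 on the log2 scale (0.70 to 3.48) beside 1.45 in all other cells. Adora2a, an adenosine receptor, was the other ULC gene past the fold, with 4 and 20 UMIs.

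Notch signalling keeps mural cells in place on vessels, and its genes were largely level. Notch3 was at 2385, 1925 and 1985 CPM. Its target Heyl was at 376, 246 and 157 CPM, and ULC against control gave -1.26 (-1.81 to -0.72), beside -1.97 in pericyte-like cells. Hey2 was at 227, 356 and 255 CPM, and Hes1 at 639, 678 and 626 CPM. Of the 11 listed genes, 1 of 9 measured was higher in ULI (Maml2, a coactivator, 3, 40 and 24 UMIs, beside 10.3% of all genes) and 0 lower. In ULC, 1 of 8 was higher (Maml2, beside 14.9%) and 1 lower (Heyl, beside 10.5%), near the share over all genes.

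Of the smooth muscle transcription factors, 1 of 16 measured was higher and 2 lower in ULI (beside 10.3% and 9.27% of all genes), and 3 of 17 were higher and 1 lower in ULC (beside 14.9% and 10.5%), out of 22 listed. Klf4, a factor known to oppose contractile gene expression, was at 304, 893 and 777 CPM, with log2 ratios of 1.55 (1.16 to 1.98) and 1.35 (0.94 to 1.79). In all other cells those of Klf4 were -0.14 and -0.34. Myocd, which opens contractile genes, was at 113, 138 and 145 CPM and Srf at 216, 206 and 138 CPM, both with intervals that included 0 for ULI. Foxf2, a mural cell factor, was at 124, 60.9 and 50.3 CPM, with log2 ratios of -1.02 and -1.30. Foxs1 was lower in ULI (-1.42), and Klf2 and Gata6 were higher in ULC.

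Matrix and basement membrane genes were level between ULI and control, with 0 of 21 measured past the fold in either direction and a median of 0.02, against 0.11 over all genes. Sparc, which binds collagen, was at 5647, 5488 and 5509 CPM. Col4a2, a basement membrane collagen, was at 1793, 1817 and 2303 CPM. In ULC, 8 of 21 were higher (38.1%, beside 14.9% of all genes) and 0 lower, namely Col4a1, Col18a1, Lamb2, Fbn1, Mfge8, Bgn, Timp3 and Igfbp5. The median log2 ratio of the list in ULC was 0.361 in smooth muscle cells, against 0.026 over all genes tested. For the same genes it was 0.132 in pericyte-like cells and 0.930 in all other cells, so the list was not raised most in smooth muscle.

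Bgn, the proteoglycan biglycan, was at 170, 101 and 1460 CPM. The ULC library against control gave a log2 ratio of 3.10 (2.59 to 3.66) in smooth muscle cells, 3.25 in pericyte-like cells and 3.28 in all other cells. Mfge8, a secreted bridging protein, was at 211, 171 and 1309 CPM, with 2.63 (2.17 to 3.13) beside 2.32 in other cells. Col4a1 was at 1489, 1329 and 3039 CPM, with 1.03 (0.84 to 1.22) beside 0.93. Pericyte-like cells had 2.51 for Mfge8 and 1.07 for Col4a1, and endothelial-like cells 2.35 and 0.65.

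Directly between the sides of the UL mice, the same genes set ULC apart. Of the contractile list 1 of 27 was higher in ULI (Tpm4, beside 9.05%) and 6 were lower (Des, Cnn2, Csrp1, Csrp2, Crip1 and Pdlim7, beside 13.1%). Of the matrix list 0 of 23 were higher and 7 lower. Tpm4 was at 978 CPM in ULI and 428 in ULC, a log2 ratio of 1.19 (0.91 to 1.48). Dmp1, a matrix phosphoprotein, was at 10.3, 166 and 28.3 CPM in control, ULI and ULC, with a log2 ratio of ULI to ULC of 2.56 (1.55 to 3.74).

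Immediate early genes, which are transcribed within minutes of a stimulus and also rise when tissue is dissociated, were the list with the highest share of genes past the fold on the higher side among those with more than 10 measured, in each comparison with control. Dissociation, the operation and the library cannot be told apart with 1 library per condition. In ULI, 9 of 22 measured genes were higher (40.9%, beside 10.3% of all genes) and 1 lower (Ier3), with a median log2 ratio of 0.82 against 0.11 over all genes. In ULC, 17 of 24 were higher (70.8%, beside 14.9%) and 0 lower, with a median of 1.40 against 0.03. The medians of the same genes were 0.47 and 0.63 in pericyte-like cells and -0.22 and -0.35 in all other cells.

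Fos, the founding member of the family, was at 2030, 4299 and 4528 CPM. Its log2 ratios were 1.08 (0.93 to 1.24) and 1.16 (1.0 to 1.32), beside 1.86 and 1.93 in pericyte-like cells, 1.78 and 1.79 in endothelial-like cells, and 0.99 and 0.68 in all other cells. Zfp36, which makes the mRNAs of inflammatory proteins decay and carries a CArG box 48 bases before its start, was at 227, 1329 and 1756 CPM. Its ratios were 2.55 (2.11 to 3.03) and 2.95 (2.51 to 3.43), against 0.77 and 0.68 in pericyte-like cells, 0.73 and 0.69 in endothelial-like cells, and 0.26 and -0.68 in all other cells. Of these groups smooth muscle cells had the highest ratio for Zfp36, and pericyte-like cells for Fos.

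Egr1, a zinc finger factor, was at 1108, 2520 and 2171 CPM, with 1.19 (0.97 to 1.40) in ULI and 0.97 (0.75 to 1.20) in ULC, the latter just under 2-fold, beside 1.78 and 1.76 in pericyte-like cells. Nr4a1, an orphan nuclear receptor, was at 634, 1083 and 2281 CPM, with 0.77 and 1.85. Btg2, an antiproliferative gene, was at 201, 499 and 1369 CPM, with 1.31 and 2.77 against -0.05 and 0.24 in other cells. For Nr4a1 and Btg2 the ULC library lay highest. Socs3, which damps cytokine signals, had 3 UMIs in control, all in 1 cell, and 60 and 67 in the UL libraries, with log2 ratios of 3.19 (1.57 to 5.50) and 3.77 (2.16 to 6.08).

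For a few members ULC stood apart from ULI. Fosb, a partner of Jun, was at 196, 138 and 2527 CPM, and its ratio of ULI to ULC was -4.19 (-4.60 to -3.81). All other cells had a Fosb ratio of -3.04 on that scale. Between the sides, 0 of 24 early genes were higher in ULI and 6 were lower (Fosb, Egr3, Ier2, Nr4a1, Atf3 and Btg2, beside 13.1%). Egr2, the other early gene with a CArG box in its window, was level at 72.1, 86.7 and 84.9 CPM.

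**Figure D3:**
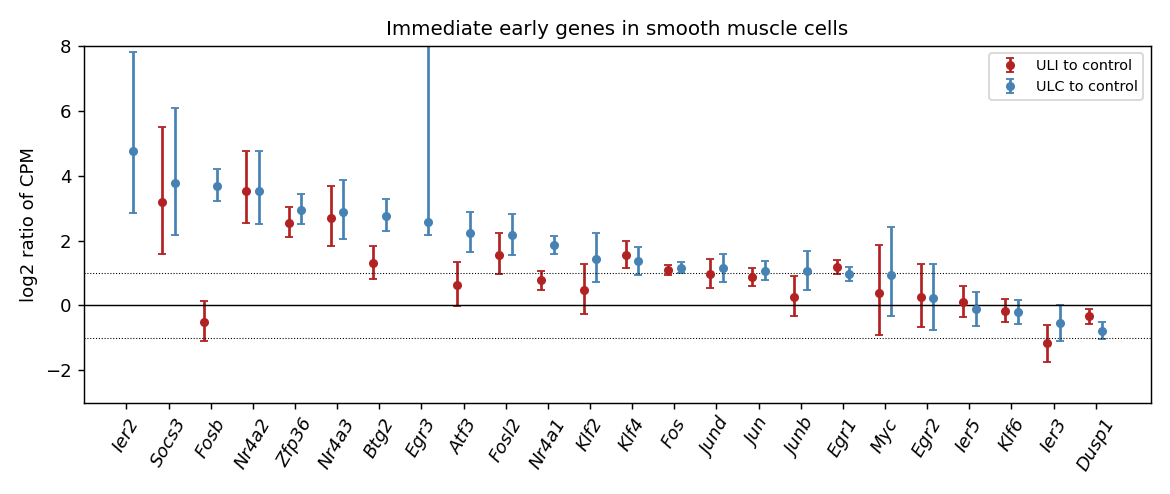
Log2 ratio of CPM to control in smooth muscle cells for the 24 immediate early genes, in ULI (red) and ULC (blue), with exact binomial 95% intervals, ordered by the ULC value. Dotted lines mark 2-fold, genes with under 20 UMIs in a pair of libraries have no point in it, and Egr3 in ULC is a lower bound, drawn with no upper end. 17 genes in ULC and 9 in ULI are past the fold on the higher side.

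The sum of the 24 early genes in smooth muscle cells was 8836 CPM (Poisson interval 8422 to 9264), 16676 CPM (16291 to 17069) and 22663 CPM (22143 to 23193). In pericyte-like cells the sum was 1958, 2654 and 3119 CPM, in endothelial-like cells 5533, 6668 and 8844, and in all other cells 7098, 6643 and 6350. The 171 cells with both smooth muscle and pericyte genes had 5784, 3844 and 7524 CPM, where ULI was below control. Smooth muscle cells were the highest of these groups in each library. The cell with the most of them held 9.21%, 4.53% and 3.53% of these UMIs. In the smooth muscle cells with no pericyte gene, the sum was 6279, 23074 and 27277 CPM, and 1 of the 16 control cells held 31.0% of the control sum. Oligodendrocyte genes made up 81257 CPM in those 16 control cells, and their part in the control sum was not tested.

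Single cells differed widely, and more so in the UL libraries. Thinned to 1000 UMIs, which left out 3, 16 and 14 shallower cells, the median smooth muscle cell had 8, 7 and 20 early gene UMIs. The upper quartile was 13.25, 26 and 34, and the highest cell had 29, 73 and 99. Cells with 20 or more were 7 of 52 in control (13.5%, 5.59 to 25.8), 51 of 165 in ULI (30.9%, 24.0 to 38.6) and 50 of 98 in ULC (51.0%, 40.7 to 61.3). In ULI the median was no higher than in control, and the difference lay in the upper part of the cells. Pericyte-like cells reached 20 in 0%, 2.11% and 3.45%, and endothelial-like cells in 1.43%, 6.33% and 8.33%.

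**Figure D4:**
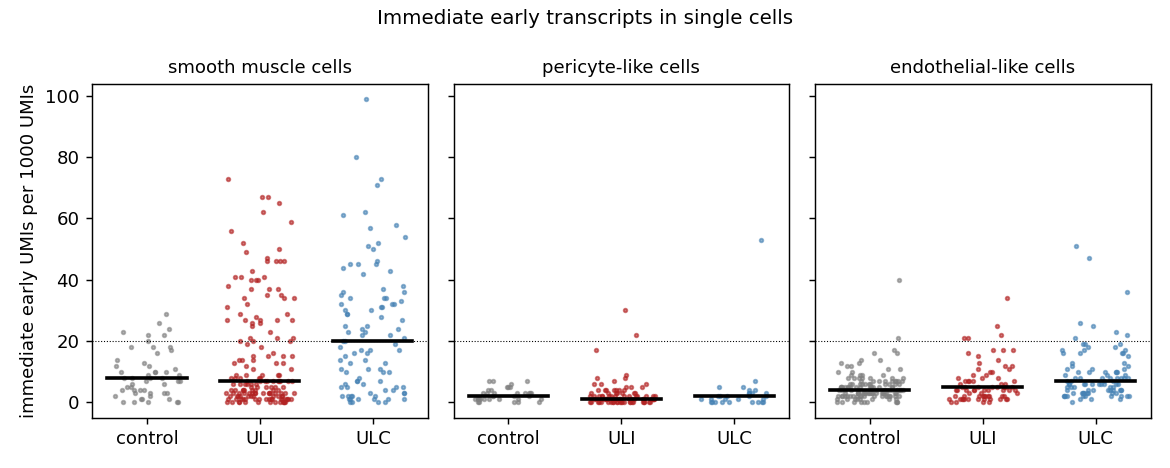
UMIs of the 24 immediate early genes per 1000 UMIs in single cells after thinning, for smooth muscle, pericyte-like and endothelial-like cells of each library. Each point is 1 cell, the black line is the median, and the dotted line marks 20. Smooth muscle cells above the line make up 13.5%, 30.9% and 51.0% of the cells in control, ULI and ULC, and the medians are 8, 7 and 20.

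Outside the lists, 3 genes with high ratios to control had few control UMIs. Thbs1, the secreted matrix protein thrombospondin 1, was among the 10 genes with the highest ratio in each comparison with control, with 3 UMIs in control and 198 and 209 in the UL libraries. Its log2 ratios were 4.91 (3.34 to 7.20) and 5.41 (3.84 to 7.70), against 1.17 and 1.29 in all other cells, and it was found in 20.4% and 21.4% of the UL smooth muscle cells. Sik1, a kinase induced by cAMP, had 1, 48 and 42 UMIs, and Gab2, a signalling adaptor, 1, 68 and 40. These ratios to control have wide intervals because control had 1 to 3 UMIs.

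Of the heat shock genes, 2 of 12 measured were higher and 2 lower in ULI (beside 10.3% and 9.27% of all genes), and 2 of 11 were higher in ULC (beside 14.9%). Hspa1b, an inducible chaperone, was at 881, 3090 and 2092 CPM, with 1.81 (1.58 to 2.05) and 1.25 (1.0 to 1.5) against -0.14 and -0.76 in all other cells and 2.03 (1.23 to 2.95) and -0.13 in pericyte-like cells. Its near-identical neighbour Hspa1a was at 886, 1479 and 1315 CPM, and reads of this pair may not be assigned with certainty. The small chaperones Hspb1 (783, 227 and 491 CPM) and Cryab (464, 127 and 343 CPM) were lower in ULI, with log2 ratios of -1.78 and -1.87.

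Among genes known to respond to glucocorticoids, 4 of 10 measured were higher in ULI (beside 10.3% of all genes) and 5 of 9 in ULC (beside 14.9%), with 0 lower in either. The other groups of cells were higher too. The median log2 ratios in ULI and ULC were 0.564 and 1.167 in smooth muscle cells. They were 1.522 and 1.381 in pericyte-like cells, and 0.405 and 0.956 in all other cells. In endothelial-like cells the list summed to 2112, 3348 and 3357 CPM in control, ULI and ULC. Errfi1, which restrains the EGF receptor, was at 670, 1657 and 1504 CPM, with 1.31 (1.03 to 1.59) and 1.17 (0.88 to 1.46) against 0.29 and -0.25 in all other cells and 3.46 (2.56 to 4.47) and 1.61 (0.53 to 2.74) in endothelial-like cells. Cdkn1a, the cell cycle inhibitor p21, was at 216, 452 and 828 CPM, with 1.06 and 1.94 against 0.52 and 1.0 in other cells. Mt1, a metallothionein, had 3, 54 and 55 UMIs, and Fkbp5, a glucocorticoid receptor cochaperone, 3, 39 and 35. Tsc22d3, a standard glucocorticoid target, was level at 278, 265 and 315 CPM.

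**Figure D5:**
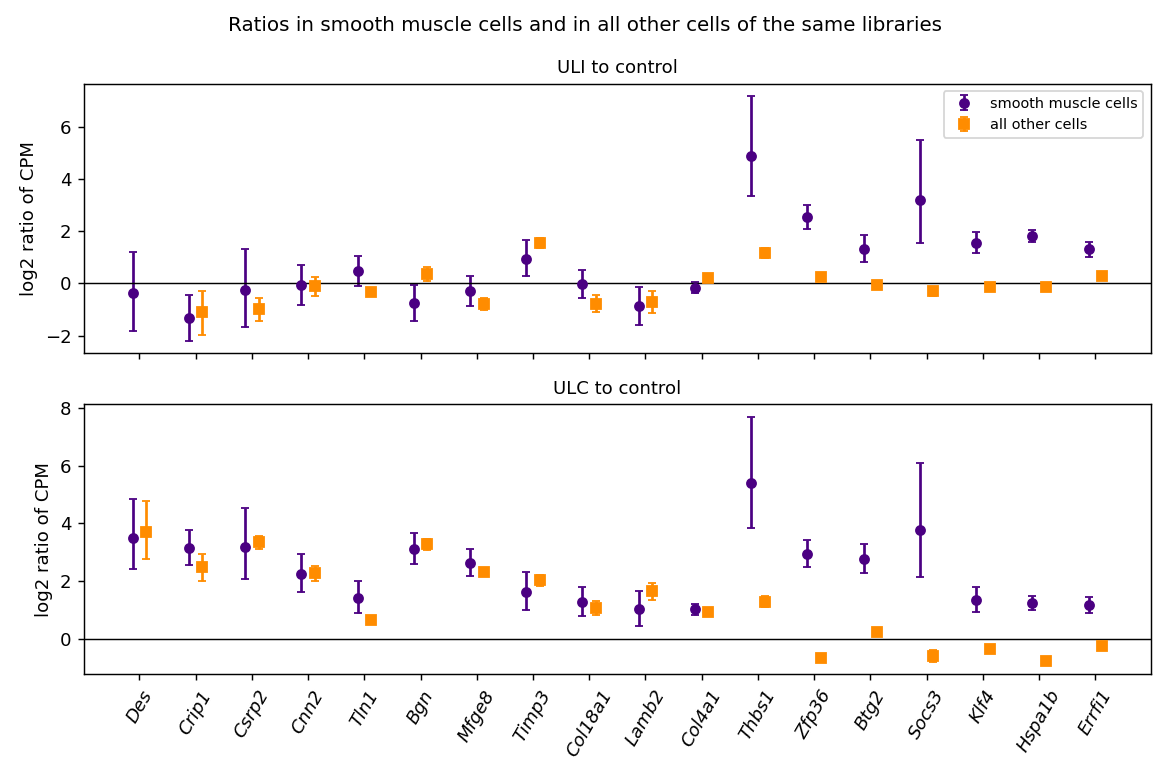
Log2 ratio of CPM of ULI to control (top) and ULC to control (bottom) in smooth muscle cells (circles) and in all other cells of the same libraries (squares), with exact binomial 95% intervals. Contractile and matrix genes are on the left and early or stress genes on the right. In ULC, circle and square lie close for Des, Cnn2, Csrp2, Bgn and Mfge8, whereas for Zfp36, Klf4 and Hspa1b the circles lie above 1 and the squares below 0.

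Among the genes with the lowest ratios to control were markers of other cell types, often held by a single control cell. Ly6c1, an endothelial marker, had 95 control UMIs, 98.9% of them in 1 cell, and Slc2a1, the endothelial glucose transporter, 67, with 98.5% in 1 cell. Markers of oligodendrocytes (6 genes) summed to 23364, 2647 and 2294 CPM. Of the smooth muscle cells, 16, 7 and 14 held 3 or more of these markers, which is 29.1% of the control, 3.87% of the ULI and 12.5% of the ULC cells. Of 8 measured oligodendrocyte genes 8 were lower in ULI (beside 9.27% of all genes) and 8 in ULC (beside 10.5%), and 1 control cell held 81.5% of the control UMIs of that list. Of endothelial genes 4 of 6 were lower in ULI and 4 of 7 in ULC, with the same shares over all genes.

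Markers of the remaining classes differed in level between the libraries. The 6 endothelial markers summed to 933, 131 and 271 CPM in the smooth muscle cells against 625, 370 and 761 CPM in all other cells, and 3 of them were at 0 in ULI (Cldn5, Pecam1 and Cdh5). The 6 neuronal markers were all at 0 in control and ULC, and Syt1 alone was found in ULI. The 6 microglial markers summed to 30.9, 84.4 and 18.9 CPM, with Tmem119 at 0 in each library. Astrocyte markers summed to 20.6, 86.7 and 56.6 CPM, ependymal markers to 20.6, 46.9 and 69.2 CPM, and macrophage markers to 25.8, 9.38 and 12.6 CPM. Oligodendrocyte precursor markers summed to 526, 563 and 1095 CPM. That set includes Cspg4, which the pericyte list also holds, so its sum need not come from precursor cells. Gpr17, C1ql1 and Neu4 of the set were at 0 in control, and 0 smooth muscle cells held 3 or more of the set in any library. The 5 fibroblast markers summed to 1283, 1034 and 856 CPM, and Dcn and Lum were at 0 in each library. Choroid plexus markers summed to 706, 377 and 14801 CPM, led by Ttr at 36.1, 166 and 9842 CPM, of which 41.2% in ULC was in 1 cell. Ttr was at 38977 CPM in all other cells of ULC. Their part in the ratios above was not tested beyond the values without cells that held 3 or more such markers.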

How the data were processed

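Single-cell libraries of the MVN of 3 conditions were used. The authors deposited UMI counts per gene and barcode, made per the submitters' processing notes with CASAVA 1.8, UMI-tools and Seurat against mm10. The aligner, annotation and cell calling were not given in the labels, the paper or the file headers, and the capture platform is named differently in the labels and in the paper. Cells with at least 200 genes were kept. Smooth muscle cells were taken by the gene criterion given at the start, other classes by markers (the class with the most of its markers, at least 3, and for pericytes at least 2 of Kcnj8, Atp13a5 and Vtn). The members and the 27 gene lists were chosen with earlier results of these data known.

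UMIs were summed per library and given as CPM with Poisson intervals, and ratios have exact binomial intervals at 95%. A sum of 0 was set to a floor of 3 counts. No test was run, as each condition has 1 library. Intervals cover counting error only. Genes were named by these rules: the 6 rule genes, the 8 (or 4) list members with the most UMIs, the 10 highest and lowest ratios per comparison, the 15 leading genes over other cells and the 10 at each end against pericyte-like cells. Further list members past the fold were named after their values were seen.

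Alternatives were other UMI minimums, edgeR TMM and DESeq2 scaling factors, totals without mitochondrial, ribosomal, choroid plexus and blood genes, stricter cells, thinning, a mean over cells and the ratio less that of other cells. The ratios without the cell with most UMIs of a gene and those in cells without pericyte genes were chosen after seeing the data. Scrublet's automatic calls marked 43, 5 and 1 cells, which is too few to rely on, so cells were kept and the top 5% of scores left out as an alternative. Calculations on simulated counts were checked first. Python 3.11.15, numpy 2.4.6, scipy 1.17.1, pandas 2.3.3, scanpy 1.11.5, matplotlib 3.10.9, R 4.3.3, edgeR 4.0.16 and DESeq2 1.42.0 were used. Promoter windows were from RefSeq, GRCm38.p6. Some genes that meet the naming rules are not reported here.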

Additional observations from a re-analysis of the deposited data

Results flagged for a closer look

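For 3 of the genes followed here, out of 21 among all genes tested, the smooth muscle cells of ULI and ULC differed from control in opposite directions, each past the fold, and with 1 library per condition the difference was not tested. Rpl35, a ribosomal protein gene with 48, 7 and 223 UMIs in control, ULI and ULC, had log2 ratios of -3.91 and 1.5, and all other cells of these libraries had -3.04 and 1.40. Crip1 had -1.32 and 3.14, beside -1.09 and 2.48 in all other cells. Enpp2, a choroid plexus and oligodendrocyte gene, had -1.72 and 2.80. Of its 130 control UMIs 92.3% were in 1 cell, and without the cell with the most in each library the Enpp2 ratio of ULI to control was 1.59.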

How the results depend on the processing

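No paired analysis was possible because each library is 1 pool of mice and the labels give no replicate numbers. Under the alternatives, 1715 values of single genes and lists stayed within the main interval (single genes) or near the main count (lists), and 258 moved. Another 20 changed direction, which was counted only for single genes past the fold in the main setting. For the cell shares and the numbers of genes at least 2-fold apart, 82 values stayed within the main interval or near the main count, and 37 moved. Under these alternatives the early gene list had 6 to 14 genes higher in ULI (median 0.72 to 1.67) and 13 to 19 in ULC (1.22 to 2.03).

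The share of smooth muscle cells in control, ULI and ULC was 1.571%, 5.372% and 4.752% with cells thinned to 1000 UMIs, 1.924%, 4.796% and 3.465% without choroid plexus and microglia in the total, and 2.344%, 5.631% and 3.103% with no limit on pericyte and fibroblast genes. With at least 500 genes per cell ULI was 4.793% and ULC 4.168%, with intervals that overlapped (4.095 to 5.571 and 3.397 to 5.057). The ULI and ULC intervals also overlapped with cells thinned to 1000 UMIs (4.652 to 6.19 and 3.914 to 5.751). The numbers of genes past the fold, higher then lower, were 260 and 153 (ULI to control), 295 and 164 (ULC to control) and 217 and 274 (ULI to ULC) with at least 50 UMIs, and 176 and 113, 189 and 105, and 195 and 223 with cells thinned to 1000 UMIs. With no minimum the lower genes numbered 978, 985 and 1387, and in cells without pericyte genes 273, 267 and 481. Without cells with 3 or more markers of another class, 296 were lower in ULI to control, and 459 higher and 295 lower in ULC to control. Without the cell with most UMIs of each gene 196 and 225 were lower. Less the ratio of other cells, 392 were higher in ULC to control and 364 lower in ULI to ULC. Pericyte-like cells taken by 2 of Kcnj8, Atp13a5 and Vtn alone gave 124 genes higher in smooth muscle.

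Among genes past the fold, directions turned for Enpp2 in ULI to control (1.49 without cells with markers of another class, 0.35 as a mean over cells, 1.59 without the cell with most) and Csrp1 (0.48 in cells without pericyte genes). Less the ratio of other cells, Ier3 in ULI came to 0.05. In ULC to control Rgs16 came to -0.69, Des -0.21, Cnn2 -0.03, Csrp2 -0.17, Lamb2 -0.60, Bgn -0.18, Timp3 -0.39 and Fbn1 -0.01. In ULI to ULC, Des and Cnn2 came to 0.07, Csrp1 0.31, Csrp2 0.91, Mfge8 0.16, Lamb2 0.41 and Tbxa2r 1.34. Depth limits genes under 20 UMIs, and the 55 control cells limit every ratio to control.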

Other observations

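Genes of vessel growth and of inflammation were measured in small number. Of hypoxia and vessel growth genes, 2 of 13 were higher in ULI (Angpt2 and Ptgis, beside 10.3% of all genes) and 1 of 11 in ULC (Ptgis, beside 14.9%). Slc2a1 alone was lower in each comparison with control (beside 9.27% and 10.5%), and nearly all its control UMIs lay in 1 cell, as given above. Ptgis, prostacyclin synthase, which makes a vessel-relaxing lipid, was at 41.2, 178 and 290 CPM in control, ULI and ULC, or 2.11 (1.06 to 3.38) and 2.81 (1.77 to 4.07) on the log2 scale, and the other cells had 0.57 and 2.70. Pdgfa was at 577, 696 and 472 CPM and Angpt1, the ligand of the endothelial receptor Tie2, at 278, 305 and 324 CPM.

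Inflammatory genes were sparse. Of the cytokine and adhesion list 0 of 4 measured genes passed the fold against control in either library, and Nfkbia, an inhibitor of NF-kB, was at 185, 136 and 201 CPM. Il6 had 0, 18 and 2 UMIs, of which 94.4% in ULI were in 1 cell. Of interferon response genes 0 of 3 were higher and 1 lower in ULI, beside 10.3% and 9.27% of all genes, and 0 of 2 passed the fold in ULC. The lower one was Ifitm3 (350, 155 and 230 CPM, 41.2% of the control UMIs in 1 cell). Among nuclear RNAs, Meg3 was lower in each comparison with control (175, 72.7 and 72.4 CPM), and Malat1 was at 1401, 1001 and 1224 CPM. Of the pericyte list, Ndufa4l2 had 3, 7 and 161 UMIs, and its ratio of ULC to control was 5.04 in smooth muscle, 6.29 in pericyte-like and 4.38 in all other cells. Ribosomal genes were taken as the 286 symbols that start with Rps or Rpl and a number, which include pseudogenes such as Rpl19-ps11. Of these, 3 of 65 measured were higher and 9 lower in ULI (beside 10.3% and 9.27% of all genes). In ULC, 20 of 77 were higher and 13 lower (beside 14.9% and 10.5%).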
